A study of Bos taurus with 6 samples.

Results

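Fibrillar collagens, the collagen-binding glycoprotein SPARC and the small proteoglycan decorin form much of the stromal matrix that gives ovarian cortex its firmness. Their transcripts were followed here through the 5 genes COL1A1 (ENSBTAG00000013103), COL1A2 (ENSBTAG00000013472), COL3A1 (ENSBTAG00000021466), SPARC (ENSBTAG00000014835) and DCN (ENSBTAG00000003505). These genes were chosen as main stromal matrix genes of the cortex and were taken by identifier. All 5 were found among the 15265 genes of the deposited table, and all 5 passed the low-count filter that left 4971 genes for testing. The symbols come from the rule that chose the genes, since the table holds identifiers alone.

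The tissue was cattle ovarian cortex, the outer shell in which primordial follicles lie, cut into strips from abattoir ovaries after natural follicles had been taken out. Control strips and High NEFA strips were each represented by 3 cultures, kept for 8 days at 38.5 °C in 5% CO2. A supplementation of 25% is recorded for both groups. High NEFA strips received oleic, stearic and palmitic acid combined at 0.72 mM, which are among the non-esterified fatty acids (NEFA) that rise in blood when cows mobilise body fat. The treatment text in the labels describes the acids for the controls too, so the control state rests on the group label. Each group has replicates numbered 2, 4 and 5. Neither the number of animals nor any pooling of strips is stated, so p-values reflect only how these samples vary, which may in part be technical. No cell type of the strips was checked by its markers, because only these 5 identifiers were paired with symbols.

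Collagen I is the main load-bearing fibre of connective tissue and is assembled from the alpha-1 chain encoded by COL1A1 and the alpha-2 chain encoded by COL1A2. Collagen III, a homotrimer of the COL3A1 product, forms thinner fibres and is often found mixed with collagen I. SPARC is secreted by the same cells and binds collagen during fibril assembly. Decorin, the product of DCN, coats collagen fibrils, regulates their diameter and binds growth factors such as TGF-beta. In the ovary these products surround primordial follicles, and stromal fibroblast-like cells are their usual source.

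Expression was measured by 3′-tag sequencing, in which a transcript gives reads near its 3′ end only. The reads of a gene therefore do not grow with its length and were not divided by it. They can still differ between genes through priming, so orders between genes are orders of reads. Levels are given as CPM, the reads of a gene scaled to a common total of reads outside the 2 most abundant genes. The depth on that basis was 204239, 205073 and 533467 reads in Control replicates 2, 4 and 5, against 384093, 400089 and 701527 reads for the same numbers of the High NEFA group. Control replicate 4 resembled the others least, with a mean Pearson r of 0.81 across the tested genes against 0.84 to 0.90 for the rest. Counting intervals below are exact (Clopper-Pearson, 95%) and cover counting error only. In bulk RNA, fewer matrix-producing cells and less RNA per cell cannot be told apart.

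COL1A1 varied more between cultures than between groups. It was measured at 1288, 399.9 and 103 CPM in Control replicates 2, 4 and 5, against 445, 212.5 and 214 CPM in the High NEFA libraries of the same numbers. The highest and the lowest of the 6 libraries were both controls and lay 12.5-fold apart, so the High NEFA values fell inside the control range. Their reads were 263 in the highest and 55 in the lowest, with intervals of 1137 to 1453 CPM and 77.7 to 134 CPM. The group means were 597 ± 616 CPM in controls and 290.5 ± 134 CPM with the fatty acids (SD, n = 3 each).

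COL1A2 was the least abundant of the 5 genes by median level. Its levels were 210.5, 151 and 46.9 CPM in Control replicates 2, 4 and 5. With the fatty acids they were 80.7, 92.5 and 88.4 CPM in replicates 2, 4 and 5, close together and again inside the control range. Only 25 to 62 reads stood behind each value, and the counting intervals of the 3 High NEFA libraries overlapped one another (54.8 to 115, 65.1 to 127.5 and 67.8 to 113 CPM).

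COL3A1 followed COL1A1 across the controls. It reached 1151, 380.4 and 137 CPM in Control replicates 2, 4 and 5, an 8.41-fold span. In High NEFA replicates 2, 4 and 5 it reached 755, 309.9 and 285 CPM. The libraries numbered 2 were the highest of each group, and the groups overlapped.

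SPARC had one library far above the rest. Control replicate 2 stood at 1102 CPM (225 reads), while Control replicates 4 and 5 stood at 97.5 CPM (20 reads) and 122 CPM (65 reads). The High NEFA libraries were at 328, 190.0 and 198 CPM for replicates 2, 4 and 5. All 3 of them lay above Control replicates 4 and 5 and below Control replicate 2.

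DCN was the most abundant of the genes in every library other than Control replicate 2, where COL1A1, COL3A1 and SPARC exceeded it. Its levels were 955, 1360 and 1790 CPM in Control replicates 2, 4 and 5. Among treated strips, replicates 2, 4 and 5 gave 1114, 2185 and 3890 CPM. High NEFA replicates 4 and 5 thus lay above all controls and High NEFA replicate 2 did not. The highest value rested on 2729 reads, with an interval of 3746 to 4039 CPM, and made DCN number 25 in rank by reads outside the 2 most abundant genes. Its lowest rank was 140, in Control replicate 2.

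**Figure D1:**
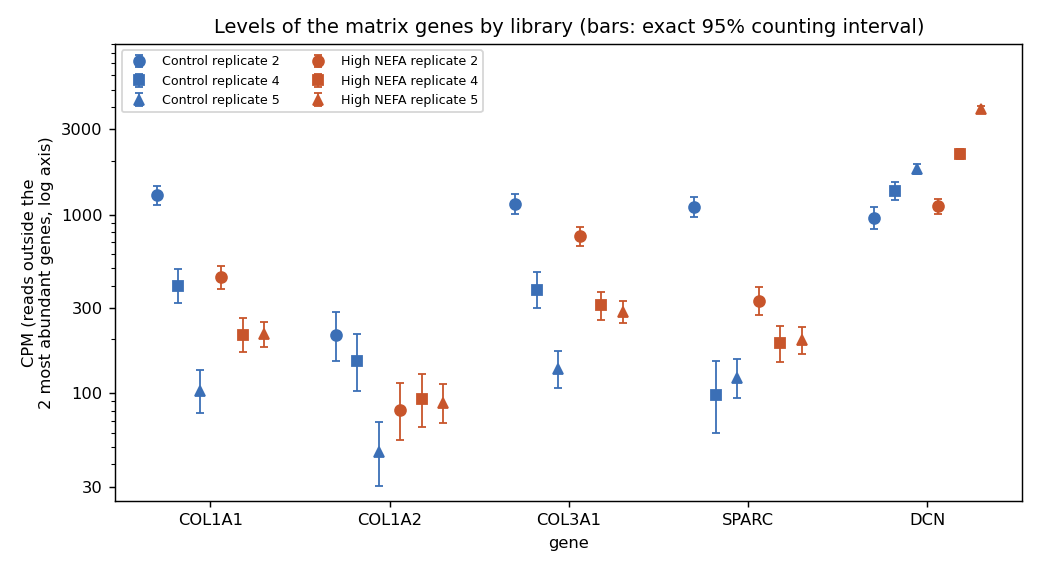
Level of each gene (CPM, log axis) in the 6 libraries, with exact 95% counting intervals; blue is Control, orange High NEFA, and the marker shape gives the replicate number. Control replicate 2 is the highest library for COL1A1, COL1A2, COL3A1 and SPARC and the lowest for DCN.

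The summed level of the 5 genes hid these contrasts. It was 4705, 2389 and 2199 CPM in Control replicates 2, 4 and 5, against 2723, 2989 and 4676 CPM in the High NEFA libraries of those numbers. Control replicate 2 and High NEFA replicate 5 had nearly the same sum but opposite make-up. DCN gave 20.3% of the 5-gene reads in the former and 83.2% in the latter. In the other libraries DCN gave 56.9% (Control replicate 4), 81.4% (Control replicate 5), 40.9% (High NEFA replicate 2) and 73.1% (High NEFA replicate 4).

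**Figure D2:**
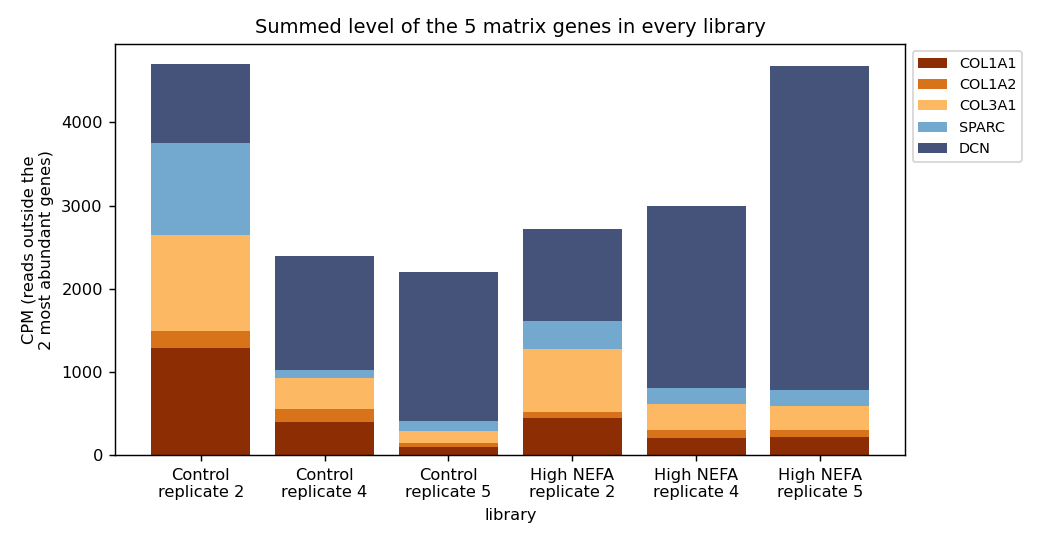
Stacked levels of the 5 genes in each library, in CPM. Control replicate 2 and High NEFA replicate 5 reach similar totals, of 4705 and 4676, the first mostly from collagens and SPARC and the second mostly from DCN.

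No gene of the set differed between the groups beyond the spread between cultures. With limma's moderated test on the deposited log2 scale and Benjamini-Hochberg adjustment over 4971 genes, 0 of the 5 had an adjusted p under 0.05, where 0 of all tested genes (0%) did. At an unadjusted p under 0.05 there were also 0 of the 5, beside 146 of all genes (2.94%). limma-voom on the recovered reads of 4969 genes gave 0 calls, and 96 genes had an unadjusted p under 0.05. The High NEFA values of 0 of the 5 lay all above the controls, against 4.95% of all genes, and of 0 all below, against 3.52%.

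The fitted differences (High NEFA minus Control) on that scale are given with their SE and 95% interval. For COL1A1 the difference was -0.58 ± 0.81 (interval -2.48 to 1.32; limma adjusted p = 0.964). It was -0.45 ± 0.42 for COL1A2 (interval -1.38 to 0.48; limma adjusted p = 0.956). COL3A1, at -0.06 ± 0.72 (interval -1.71 to 1.58; limma adjusted p = 0.996), had hardly any difference in means but a wide interval. SPARC was at -0.17 ± 0.81 (interval -2.06 to 1.72; limma adjusted p = 0.992). DCN alone had the higher mean in treated strips, at 0.60 ± 0.45 (interval -0.40 to 1.60; limma adjusted p = 0.946). The median over the 5 was -0.17, beside 0.04 over all tested genes. The intervals of COL1A1, COL3A1 and SPARC hold a change of 1 log2 unit in both directions. That of COL1A2 holds a fall of this size but not a rise, and that of DCN a rise but not a fall.

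Control replicate 2 set the direction for several of these differences. Without it the difference was 0.24 for COL1A1, 0.66 for COL3A1 and 0.86 ± 0.34 for SPARC (limma adjusted p = 0.802), each now higher with the fatty acids. For COL1A2 it was -0.13 and for DCN 0.31 without that library. Without Control replicate 5, which had the lowest collagen levels, COL1A1 stood at -1.49 ± 0.50 and COL1A2 at -0.99 ± 0.31, both with a limma adjusted p of 0.388, and COL3A1 at -0.82 and SPARC at -0.66. DCN was higher in the High NEFA mean under each of these omissions, from 0.15 without High NEFA replicate 5 to 1.07 without High NEFA replicate 2. Without Control replicate 4, SPARC stood at -0.70 and COL1A2 at -0.24. SPARC was at -0.41 and COL1A1 at -0.93, with COL3A1 at -0.51, when High NEFA replicate 2 was left out.

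**Figure D3:**
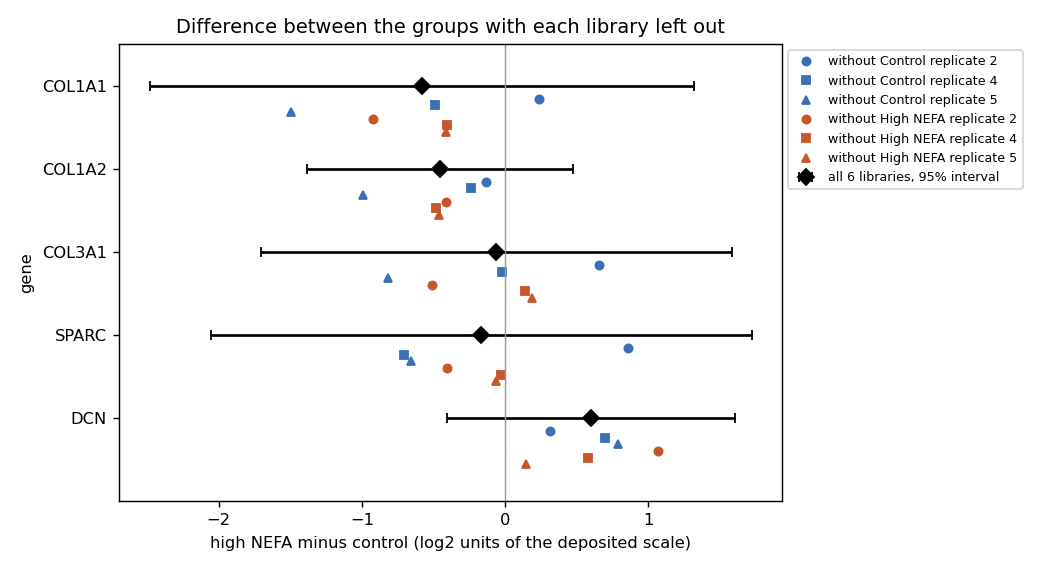
Difference between the groups for each gene (High NEFA minus Control, log2 units of the deposited scale) over all 6 libraries, as a black diamond with its 95% interval, and with each library left out, as coloured markers. Leaving out Control replicate 2 moves COL1A1, COL3A1 and SPARC to the right of 0, to 0.24, 0.66 and 0.86.

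Setting libraries of the same number side by side showed DCN higher with the fatty acids at each number. In CPM it was 1.17-fold at number 2, 1.61-fold at number 4 and 2.17-fold at number 5. On the deposited scale the same differences were 0.24, 0.44 and 1.12 log2 units, and that at number 4 was 0.68 in log2 CPM. The other folds given here are also of CPM. The collagens did not keep a direction. COL1A1 was at 0.346, 0.531 and 2.07 times the control level at numbers 2, 4 and 5. COL3A1 was at 0.656, 0.815 and 2.08 times that level. SPARC was at 0.298 times the control level at number 2, and at 1.95 and 1.63 times at numbers 4 and 5. At each number the High NEFA library was also the deeper one. With depth as a covariate, the fitted difference of DCN on the deposited scale was 0.03 ± 0.48, and the cause was not tested. The labels do not say that equal numbers share a source.

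Ratios of reads within one library do not depend on how libraries are scaled. The ratio of COL1A1 to COL1A2 reads, the chains of collagen I, was 6.12 in Control replicate 2 (interval 4.42 to 8.65) and 5.52 in High NEFA replicate 2 (3.75 to 8.37). The other libraries gave 2.65 (1.73 to 4.14) and 2.20 (1.35 to 3.68) in Control replicates 4 and 5. High NEFA replicates 4 and 5 gave 2.30 (1.54 to 3.48) and 2.42 (1.79 to 3.31). The ratio was thus higher in both libraries numbered 2 than in the others, with an overlap only between the intervals of High NEFA replicate 2 and Control replicate 4, and its groups did not differ beyond their spread (exact permutation test on log2 ratios, two-sided, p = 0.7).

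The ratio of COL3A1 to COL1A1 reads was the one measure in which the groups did not overlap. It was 0.893, 0.951 and 1.33 in Control replicates 2, 4 and 5, against 1.70, 1.46 and 1.33 in High NEFA replicates 2, 4 and 5. Control replicate 5 (73 to 55 reads, interval 0.923 to 1.92) and High NEFA replicate 5 (200 to 150 reads, interval 1.07 to 1.66) were almost equal, so the gap between the groups was far smaller than either counting interval. The mean log2 ratio was 0.06 ± 0.31 in controls and 0.57 ± 0.18 with the fatty acids (SD, n = 3 each), a difference of 0.52. Its exact permutation p of 0.1, two-sided, is the smallest that 3 against 3 libraries allow, and it became 0.88 after Benjamini-Hochberg adjustment over the 11 levels, sums and ratios tested.

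SPARC kept close to COL1A1 in 5 libraries, at 0.737 to 1.18 reads per COL1A1 read. Control replicate 4 was apart at 0.244 (20 to 82 reads, interval 0.142 to 0.401), below the intervals of all other libraries. Between the groups this ratio differed by less than the spread (exact permutation test, p = 0.8). The ratio of DCN to the 3 collagen genes together had the widest span. It was 0.360, 1.46 and 6.24 in Control replicates 2, 4 and 5, against 0.870, 3.55 and 6.62 in High NEFA replicates 2, 4 and 5. In each group the library numbered 2 was lowest and the one numbered 5 highest, and the groups did not differ beyond this spread (exact permutation test, p = 0.6).

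**Figure D4:**
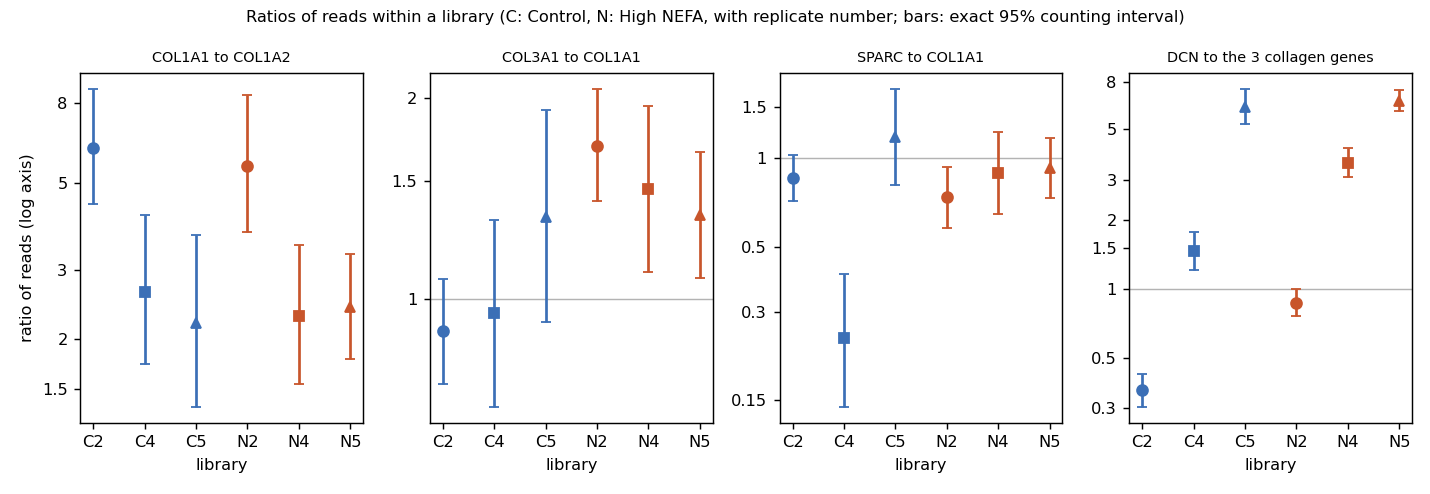
Ratios of reads within each library, on log axes, with exact 95% counting intervals; C is Control and N High NEFA, followed by the replicate number. Both libraries numbered 2 lie highest for COL1A1 to COL1A2 (6.12 and 5.52) and lowest of their group for DCN to the 3 collagen genes (0.360 and 0.870).

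As levels, the groups overlapped for each of the genes. The exact permutation test on CPM allows no two-sided p below 0.1 with 3 against 3 libraries. It could therefore call no gene different, and its p-values only describe how far the groups overlapped. The two-sided p was 0.7 for COL1A1, 0.4 for COL1A2, 0.8 for COL3A1, 1.0 for SPARC and 0.3 for DCN (adjusted p = 0.88 or 1.0 for each). DCN averaged 1368 ± 418 CPM in controls and 2396 ± 1400 CPM in High NEFA cultures (SD, n = 3 each). The 3 collagens and SPARC together averaged 1729 ± 1778 and 1066 ± 470 CPM (SD, n = 3 each; exact permutation test, p = 0.8).

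COL1A1, COL3A1 and SPARC had a large spread between controls beside other genes, and DCN did not. The SD of COL1A1 over the 3 controls was 1.74 on the deposited log2 scale, and 43 of the 4971 tested genes (0.865%) had a larger one. SPARC had an SD of 1.78 and COL3A1 one of 1.48, exceeded by 40 and 71 genes. COL1A2 had an SD of 0.94 (436 genes larger) and DCN one of 0.51 (2080 genes larger). The median over tested genes was 0.45 in controls and 0.28 in High NEFA cultures. In the High NEFA group the order was different: DCN had the largest SD of the 5, at 0.92 (61 genes larger), and COL1A2 the smallest, at 0.07 (4752 genes larger). COL3A1 was at 0.78 and COL1A1 at 0.60 in that group. The COL1A2 values there rested on 31, 37 and 62 reads, with counting intervals wider than the gaps between them. Its SD of 0.07 therefore cannot show that these cultures varied little.

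Over the 6 libraries the 3 collagen genes and SPARC had positive Pearson correlations with each other and negative ones with DCN, on the deposited scale. None of the 10 pairs passed Benjamini-Hochberg adjustment over the 20 coefficients tested. COL1A1 and COL3A1 had the highest, with r = 0.96 (exact permutation p = 0.0111, adjusted 0.181) and Spearman's rho = 0.89 (exact permutation p = 0.0333, adjusted 0.181). This pair stayed at r = 0.84 without Control replicates 2 and 5, the 2 libraries farthest from the median of COL1A1. COL1A1 and COL1A2 had r = 0.88 (exact permutation p = 0.025, adjusted 0.181) and rho = 0.77 (exact permutation p = 0.103, adjusted 0.236). Their r was 0.51 without the same 2 libraries. COL1A2 and COL3A1 had r = 0.74 (exact permutation p = 0.1) and rho = 0.66 (exact permutation p = 0.175). For this pair r was 0.62 without Control replicates 2 and 4, the 2 libraries farthest from the median of COL1A2. The values with 2 libraries left out therefore do not all rest on the same libraries.

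SPARC had r = 0.82 with COL3A1 (exact permutation p = 0.0361, adjusted 0.181; rho = 0.60, exact permutation p = 0.242). Its correlation with COL1A1 was r = 0.80 (exact permutation p = 0.0708; rho = 0.43, exact permutation p = 0.419), and with COL1A2 it was r = 0.53 (exact permutation p = 0.282; rho = 0.20, exact permutation p = 0.714). The relation of SPARC to COL1A1 changed with the libraries included. Its r was -0.02 without Control replicates 2 and 5, the 2 farthest from the median of COL1A1. Without Control replicate 2 alone, the 6 pairs among the collagens and SPARC ran from -0.22 to 0.94, against 0.53 to 0.96 with it. When Control replicate 4 alone was left out, where SPARC had 20 reads, these 6 pairs ran from 0.83 to 0.99.

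DCN had r = -0.69 with COL1A1 (exact permutation p = 0.118; rho = -0.71, exact permutation p = 0.136) and r = -0.70 with COL3A1 (exact permutation p = 0.118; rho = -0.83, exact permutation p = 0.0583). Without Control replicates 2 and 5, the 2 libraries farthest from the medians of COL1A1 and of COL3A1, these stood at -0.82 and -0.90. With SPARC, r was -0.60 (exact permutation p = 0.222; rho = -0.43, exact permutation p = 0.419), and with COL1A2 it was -0.42 (exact permutation p = 0.386; rho = -0.37, exact permutation p = 0.497). The pair with SPARC was at 0.84 without Control replicate 2 and High NEFA replicate 2, the 2 libraries farthest from the median of SPARC. That with COL1A2 was at 0.28 without Control replicates 2 and 4, the 2 farthest from the median of COL1A2. Different libraries were left out, so these values cannot be compared between pairs. Without Control replicate 2 alone, the 4 pairs with DCN ran from -0.52 to -0.06. Without both libraries numbered 2 they ran from -0.21 to 0.84. Measured from the mean of each replicate number, as a block, all 4 were positive, from 0.04 to 0.45. These values rest on 3 differences of High NEFA minus Control, 1 for each number, and keep the difference between the groups. After group means had been removed, r was 0.99 for COL1A1 with COL3A1 and -0.77 for COL3A1 with DCN. With 3 libraries a group, correlations within a group were not computed. All 10 correlations share the same 6 libraries and their depths.

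**Figure D5:**
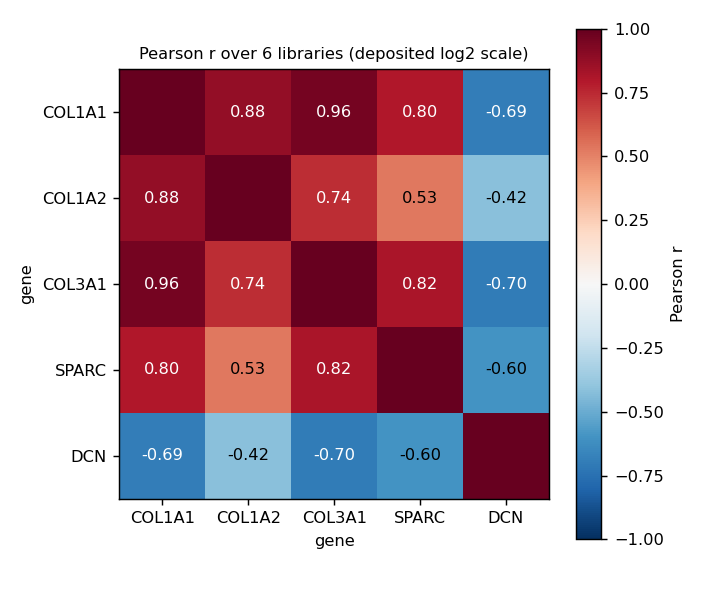
Pearson correlation of each pair of genes over the 6 libraries on the deposited log2 scale (red positive, blue negative). The 3 collagen genes and SPARC are positive with each other, from 0.53 to 0.96, and negative with DCN, from -0.42 to -0.70. None passed adjustment. Measured from the mean of each replicate number, the pairs with DCN are positive (0.04 to 0.45), which rests on 3 differences between the groups.

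The relation of depth to these levels was tested over the 6 libraries, and 0 of 10 coefficients passed adjustment. Pearson's r with the log2 reads of a library was -0.80 for COL1A1 (exact permutation p = 0.0486; rho = -0.83, exact permutation p = 0.0583), -0.85 for COL1A2 (exact permutation p = 0.0444; rho = -0.71, exact permutation p = 0.136) and -0.69 for COL3A1 (exact permutation p = 0.121; rho = -0.89, exact permutation p = 0.0333). It was -0.42 for SPARC (exact permutation p = 0.435; rho = -0.26, exact permutation p = 0.658) and 0.75 for DCN (exact permutation p = 0.0806; rho = 0.89, exact permutation p = 0.0333). No adjusted p over these 10 coefficients was below 0.117. Without the 2 libraries farthest from the median depth, r was -0.48, -0.14, -0.54, -0.46 and 0.82 in the same order of genes. With depth as a covariate, chosen after seeing the data, the fitted difference of DCN was 0.03 ± 0.48 and that of COL3A1 was 1.05 ± 0.55 (limma adjusted p = 1.0 for both).

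The 2 other tested genes whose pattern was most like the mean of the 5 centred genes were ENSBTAG00000000816 (Pearson r = 0.993 over 6 libraries) and ENSBTAG00000001390 (r = 0.990). The first had 20, 6 and 7 reads in Control replicates 2, 4 and 5 and 16, 13 and 23 reads in High NEFA replicates 2, 4 and 5. The second had 12, 7 and 13 reads in those controls and 15, 13 and 24 reads with the fatty acids. They were picked as the highest of 4966 genes, of which 38 (0.765%) had an r over 0.9, and their reads are few. Among the 5 themselves, r with this mean was 0.97 for COL1A1, 0.94 for COL3A1, 0.87 for SPARC, 0.84 for COL1A2 and -0.54 for DCN, each of which is part of that mean.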

How the data were processed

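One deposited table of 15265 genes by 6 libraries was used, with columns matched to samples by title. The deposited values are in log2 units, after a scaling and a transformation that the authors made and that no source used here names. The submitters' processing notes list STAR 2.7, featureCounts, DESeq2, Trimmomatic and FastQC 0.11.2 and the assembly ARS-UCD1.2. Per the labels' protocols, libraries were QuantSeq FWD with molecular identifiers. Whether duplicates were removed with them is not given in the sources used here.

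Low values rise in steps that lie on one curve for all libraries. Reads were recovered by aligning the 70 to 173 consecutive steps of each library and extending the curve with local cubic fits. Up to 5000 reads, 100% of the extended values were whole within 0.1 reads. The scaling factors implied equalled median-of-ratios factors to 3 decimals. The 2 most abundant genes lie beyond a gap in the values, and their reads were not recovered; they stay out of depth and CPM.

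Genes were tested if 3 or more libraries reached 25.5 CPM (10 reads at the median depth) and all reads came to 15 or more, with limma 3.58.1 in R 4.3.3 on the deposited values (trend, robust shrinkage, two-sided, Benjamini-Hochberg, threshold 0.05). Single values were tested by exact permutation in Python 3.11.15 with numpy 2.4.6. The scripts were tested on simulated data. Named genes are the 5 chosen ones and the 2 most like their mean. Members and lists were chosen with earlier results of these data known. A matrix list and cell type markers were planned, but 0 identifiers matched the RefSeq table used here, so they were not analysed here. No gene sequences were used here.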

Additional observations from a re-analysis of the deposited data

How the results depend on the processing

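Under all 19 alternative fits run, 0 genes and 0 of the 5 had an adjusted p under 0.05, and the lowest adjusted p for any of the 5 was 0.388, without Control replicate 5. DCN kept its direction in all 19 (0.03 to 1.07). Without one library, differences ran from -1.49 to 0.24 (COL1A1), -0.99 to -0.13 (COL1A2), -0.82 to 0.66 (COL3A1), -0.70 to 0.86 (SPARC) and 0.15 to 1.07 (DCN). COL3A1 also turned positive without High NEFA replicate 4 (0.14) or 5 (0.19), without both libraries numbered 4 (0.18) or 2 (0.21), with quality weights (0.21) and as log2 CPM (0.05 with pseudocounts of 0.5, 1 and 5). The CPM scaling moved the median of all genes from 0.04 to 0.15, and relative to it COL3A1 was at -0.10 on both scales. With quality weights COL1A1 was at -0.18 and COL1A2 at -0.10. Without both libraries numbered 2 these were at -0.11 and -0.09, and SPARC at 0.62. With depth as a covariate, differences were 0.65 (COL1A1), 0.18 (COL1A2), 1.05 (COL3A1) and 0.51 (SPARC); the cause was not tested. These last 2 settings were chosen after seeing the data.

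The median r of the 6 pairs among collagens and SPARC was 0.81. It was 0.59 to 0.93 without one library, 0.52 without both libraries numbered 2 and 0.56 without the 2 farthest. For the 4 pairs with DCN it was -0.64, and -0.83 to -0.34 without one library, -0.10 without both numbered 2 and -0.27 without the 2 farthest. The 2 farthest were set for each pair separately, so the libraries left out differ between pairs. Measured from the mean of each replicate number, as a block, it reversed to 0.14, which rests on a single difference per number and keeps the difference between the groups. The COL3A1 to COL1A1 log2 ratio difference of 0.52 was 0.41 to 0.69 without one library and 0.31 without both numbered 2; by number it was 0.924 at 2, 0.617 at 4 and 0.007 at 5.

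Deviations from group means correlated at 0.18, -0.16 and 0.44 for numbers 2, 4 and 5, and only number 5 gave both of its libraries their best partner. Within a group of 3 libraries these deviations sum to 0, so this check cannot settle whether equal numbers share a source. The labels state no such link, and the main fit left the replicate number out. The replicate block gave 0 called genes, 249 at an unadjusted p under 0.05 against 146, and an SE of 0.30 for DCN (limma adjusted p = 0.830); the ratio difference had p = 0.25 by exact sign flips, the smallest that 3 pairs allow. Scaling by library totals was not run, because the reads of the 2 most abundant genes were not recovered. With 20 to 31 reads behind SPARC and COL1A2 in Control replicate 4, counting error limits these values.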
